A study of Homo sapiens with 10 samples.

Results

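The lysosome and autophagy genes described here are 32 of the 32738 genes counted in single-cell RNA sequencing (scRNA-Seq) of HCT-116, a widely used human colorectal carcinoma line of epithelial origin. They were chosen by gene symbol for their roles: 8 hydrolases that cut sugars and lipids, 2 activator proteins for sphingolipid breakdown, 7 proteases, 7 membrane and cholesterol proteins, 3 subunits of the proton pump, 2 transcription factors and 3 autophagy proteins. The choice used no measured value as a rule, but it was made with earlier results of these data known. The groups were cells given 200 nM doxorubicin (DOX) for 24 h and then left for 6 d without drug, with 2 libraries, and untreated cells, with 2 libraries. Doxorubicin is an anthracycline that damages DNA and poisons topoisomerase II. All 4 libraries are labelled as the same line and as wild-type. Neither the labels nor the methods say whether the 2 libraries of a group are separate cultures. P-values therefore measure only the spread between these libraries, which may be technical.

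Lysosomes are acidic organelles that break down material delivered by endocytosis and by autophagy, the process in which a newly formed membrane sac closes around part of the cytoplasm and fuses with the lysosome. A proton pump, the V-ATPase, keeps the lumen acidic, and many hydrolases work at that pH with the help of small activator proteins. TFEB and TFE3 are transcription factors that switch on many lysosomal and autophagy genes by binding a short DNA element that contains the letters CACGTG. Senescent cells are known for an enlarged lysosomal compartment, and the stain most used to find them measures the activity of lysosomal beta-galactosidase, which GLB1 encodes. The study stained for this activity by flow cytometry and describes giant polyploid cells with high activity after DOX. That staining was not among the data read here, nor was any protein, and all values below are RNA.

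Each value is a count of unique molecular identifiers (UMIs), that is, of captured RNA molecules. The deposited tables hold 159897846 and 170495465 UMIs in the DOX libraries and 317489299 and 209547139 in the untreated libraries. The comparison used barcodes with at least 20000 UMIs and a mitochondrial share under 8%, called deep cells below. These were 1307 and 1080 of 8000 barcodes each in the DOX libraries, against 3572 of 4701 and 2137 of 2528 in the untreated libraries. Of barcodes with at least 20000 UMIs, the mitochondrial limit left out 579 and 651 in the DOX libraries and 395 and 173 in the untreated libraries. It thus took a larger share from the DOX libraries, and no looser limit was run. The deep cells had a median depth of 72676 and 84829.5 UMIs in the DOX libraries and 72791.5 and 81168 in the untreated libraries. Pairs of libraries shared 5 to 24 barcodes, at most 0.317% of the smaller library. The epithelial markers EPCAM, KRT8, KRT18, KRT19 and CDH1 summed to 6136 and 5823 counts per 1000000 UMIs (CPM) in the DOX libraries and 3913 and 3541 CPM in the untreated libraries. Markers of blood, connective tissue, liver and vessels, of which 9 of 10 are in the tables, summed to 5.03 and 5.25 CPM after DOX against 2.98 and 3.20 CPM in untreated cells, and most of this was COL1A1, while COL1A2 was at 0 in all libraries. The first sum was carried by the 3 keratins, while EPCAM was lower after DOX, at 299 and 312 CPM in the DOX libraries against 377 and 324 CPM in the untreated libraries (log2 fold change -0.37, adjusted p = 0.0135). These values moved with the treatment, and their part in the results below was not tested. As context, CDKN1A, the p53 target that stops the cell cycle, had 281 and 240 CPM in DOX libraries and 29.1 and 29.3 CPM in untreated libraries (a log2 difference of 2.99, SE 0.09, adjusted p = 1.78e-07).

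The start regions of the genes show which members carry the letters that TFEB and TFE3 bind. RefSeq windows of 250 bases before to 50 bases after each annotated start (GRCh38.p14) were at hand for 25 of the 32 members, 39 windows in all. HEXA, ASAH1, PSAP, CTSB, LAMP2, ATP6V1A and ATP6V1H had no window. The letters CACGTG, which read the same on both strands, were in windows of 7 members (28.0% of the 25), against 8.77% of all 27305 genes in the table. The longer form TCACGTGA contains the shorter one and also reads the same on both strands. It was in windows of 4 members (16.0%), against 1.18% of all genes. A gene with several windows has more places to match. Counted per window, the shares were 17.9% of member windows against 7.26% of all 35116 windows for CACGTG. For the longer form they were 10.3% against 0.98%. The 4 members with the longer form are shown with the stretch that holds its copy nearest to the start, written along the gene with the 8 letters in capitals.
MCOLN1: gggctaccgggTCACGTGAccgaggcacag
LAMP1: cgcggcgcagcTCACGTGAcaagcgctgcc
CTSA: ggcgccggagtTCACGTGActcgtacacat
ATP6V0D1: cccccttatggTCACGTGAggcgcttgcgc

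These stretches lie at chr19:7522598-7522627 on the plus strand (MCOLN1), chr13:113297226-113297255 on the plus strand (LAMP1), chr20:45891298-45891327 on the plus strand (CTSA) and chr16:67481199-67481228 on the minus strand (ATP6V0D1). The capitals begin 15 bases before the annotated start in MCOLN1, 2 bases in LAMP1, 26 bases in CTSA and 60 bases in ATP6V0D1. MCOLN1 and LAMP1 each have a further copy of the 8 letters in the same window. CACGTG without the longer form was found for NEU1, CTSD and CD63. The windows of all other members that have one, TFEB and TFE3 included, do not hold CACGTG. A match is a description of letters and says nothing of binding in these cells.

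In deep cells, the members did not move as a block after DOX. Of 32 members, all tested, 13 rose and 7 fell, and 12 did not pass the test (edgeR's quasi-likelihood test on counts summed per library, Benjamini-Hochberg adjusted p under 0.05, 2 against 2 libraries). Of all 21563 genes tested, 28.2% rose and 26.4% fell, so the share of members that rose, 40.6%, stood above that background and the share that fell, 21.9%, somewhat below it. Their median log2 fold change was 0.11, against 0.04 over all genes tested. The members together made up 1781 and 1744 CPM of the RNA in the DOX libraries and 1577 and 1555 CPM in the untreated libraries. Fold changes here are scaled by the trimmed mean of M-values (TMM), while CPM are shares of all UMIs. Scaling by library size alone moved the median of all genes by 0.17 on the log2 scale, and the members then split into 19 higher and 3 lower. Of all 21563 genes, 8472 were higher and 3259 lower on that scale. The rises and falls in this paragraph and below are relative to the TMM scale.

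**Figure D1:**
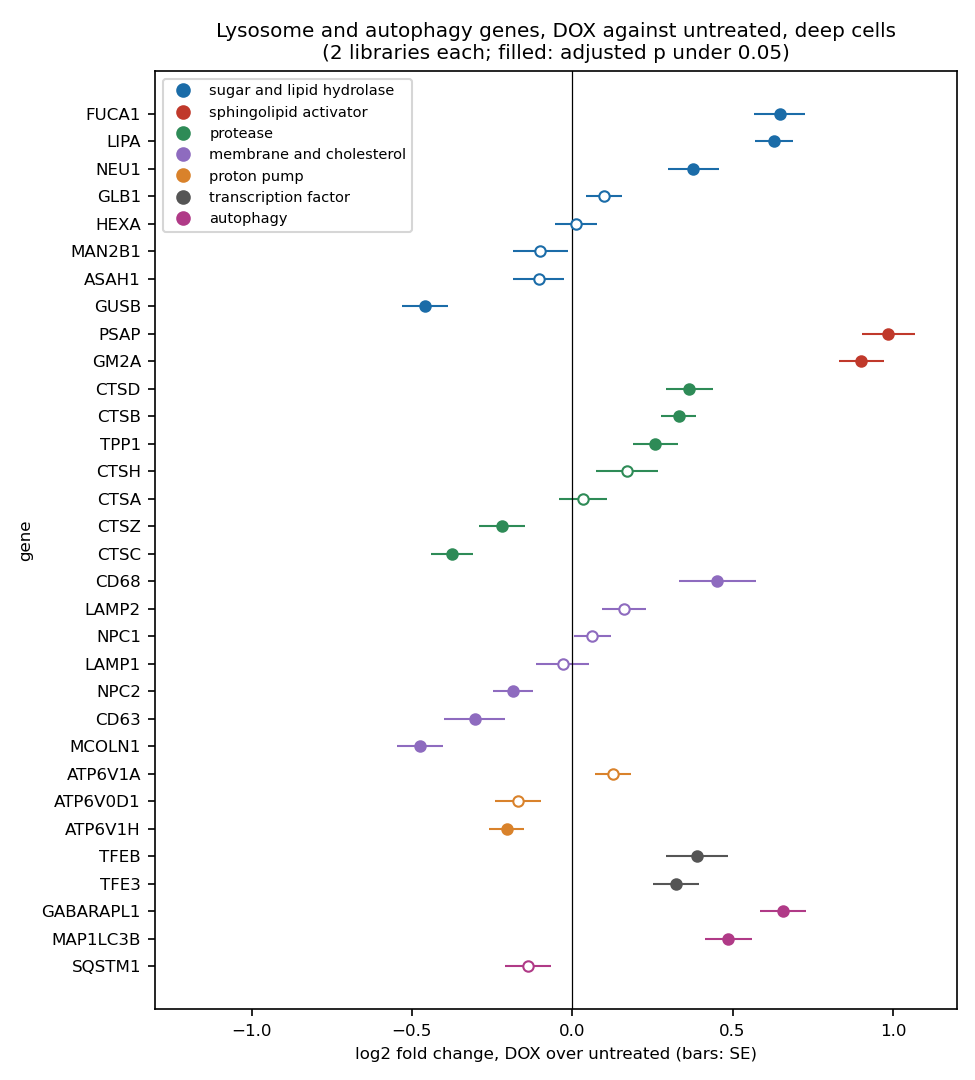
Log2 fold change of each of the 32 members in deep cells, DOX over untreated, with its standard error (2 libraries each), grouped by role along the vertical axis. Filled points passed an adjusted p of 0.05. PSAP and GM2A lie farthest to the right, at 0.99 and 0.90, and MCOLN1 and GUSB farthest to the left, at -0.48 and -0.46.

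Both sphingolipid activators rose, and no other role moved as far. PSAP (GRCh37 chr10:73576055-73611008, minus strand) encodes prosaposin, the precursor of the saposins that present glycosphingolipids to their hydrolases. PSAP had 150 and 128 CPM in the DOX libraries, against 60.1 and 65.0 CPM in the untreated libraries. The DOX libraries were 1.98-fold higher (log2 fold change 0.99, SE 0.08, adjusted p = 2.99e-05). The groups had no overlap, which its choice as a called gene makes likely. GM2A (chr5:150591711-150650001, plus strand) encodes the activator that lifts the ganglioside GM2 for beta-hexosaminidase. It had 12.4 and 11.7 CPM after DOX and 5.63 and 5.90 CPM without it, and rose by 0.90 on the log2 scale (SE 0.07, adjusted p = 2.05e-05). HEXA, the alpha subunit of the hexosaminidase that GM2A serves, was not called, with 20.4 and 19.5 CPM in the DOX libraries and 17.7 and 17.5 CPM in the untreated libraries (log2 fold change 0.01, SE 0.07, adjusted p = 0.896).

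Among the 8 sugar and lipid hydrolases 3 rose, 1 fell and 4 were not called. GLB1 (chr3:33038101-33138694, minus strand) had 29.4 and 29.1 CPM in the DOX libraries, against 23.6 and 25.1 CPM in the untreated libraries. The fold change of GLB1 was 0.10 on the log2 scale (SE 0.06, adjusted p = 0.17), so GLB1 RNA was not called changed in deep cells as a whole, although both DOX libraries lay above both untreated libraries as shares of all UMIs. The call depends on the scale and on the mitochondrial limit, since library size alone gave 0.26 (adjusted p = 0.00579) and a limit of 5% gave 0.18 (adjusted p = 0.0461). FUCA1, the alpha-fucosidase and a known p53 target, had 23.1 and 21.6 CPM after DOX and 13.1 and 12.2 CPM in untreated cells, a rise of 0.65 (SE 0.08, adjusted p = 0.000206). LIPA, the lysosomal acid lipase that frees cholesterol and fatty acids from their esters, had 20.5 and 21.1 CPM in DOX libraries and 11.8 and 12.2 CPM in untreated libraries, a rise of 0.63 (SE 0.06, adjusted p = 5.05e-05). The groups did not overlap for either gene, which their choice as called genes makes likely. The share of all genes without overlap was not counted. NEU1, the lysosomal sialidase, rose by 0.38 (adjusted p = 0.00346). GUSB, the beta-glucuronidase, fell by 0.46 (adjusted p = 0.000705), with 18.8 and 20.2 CPM in DOX libraries against 24.4 and 23.3 CPM in untreated libraries. The log2 fold changes of MAN2B1, the alpha-mannosidase, and ASAH1, the acid ceramidase, were both -0.10 with adjusted p of 0.356 and 0.298.

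The 7 proteases split into 3 that rose, 2 that fell and 2 not called. CTSD, an aspartic protease, rose by 0.36 (adjusted p = 0.00282), the cysteine protease CTSB by 0.33 (adjusted p = 0.00107) and TPP1, which takes tripeptides off the amino end of proteins, by 0.26 (adjusted p = 0.0116). CTSC, which activates granule proteases in blood cells, fell by 0.37 (adjusted p = 0.00144) and CTSZ, a carboxypeptidase, fell by 0.22 (adjusted p = 0.0284). The CTSZ values overlapped as shares of all UMIs, at 64.6 and 69.2 CPM in DOX libraries and 71.0 and 67.6 CPM in untreated libraries, and its call was lost with library size alone. CTSA, which protects beta-galactosidase and sialidase in a complex, had a log2 fold change of 0.03 and CTSH one of 0.17, neither called.

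The membrane and cholesterol proteins gave 1 rise and 3 falls among 7. MCOLN1, the calcium channel of the lysosome membrane, fell by 0.48 (SE 0.07, adjusted p = 0.000585), with 10.4 and 10.8 CPM in DOX libraries against 13.3 and 12.9 CPM in untreated libraries. CD63, a tetraspanin of late endosomes, fell by 0.30 (adjusted p = 0.0241), and NPC2, the soluble cholesterol carrier, fell by 0.19 (adjusted p = 0.0326). Both lost the call with library size alone, and with either DOX library left out. The NPC2 values overlapped as shares of all UMIs, at 108 and 104 CPM in DOX libraries and 106 and 109 CPM in untreated libraries. CD68, a glycoprotein of the LAMP family best known from macrophages, rose by 0.45 (SE 0.12, adjusted p = 0.0112) from low counts, 3.44 and 4.29 CPM in DOX libraries against 2.54 and 2.47 CPM in untreated libraries. LAMP1 and LAMP2, the abundant glycoproteins that coat the inner face of the membrane, had log2 fold changes of -0.03 and 0.16, and NPC1, which works with NPC2 in cholesterol export, 0.06, none of them called.

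Of the proton pump subunits, ATP6V1H fell by 0.21 (adjusted p = 0.0121), a call lost with library size alone, while ATP6V0D1 at -0.17 and ATP6V1A, the catalytic subunit, at 0.13 were not called. The ATP6V1H values overlapped as shares of all UMIs, at 32.2 and 32.7 CPM in DOX libraries and 32.4 and 34.2 CPM in untreated libraries. Both transcription factors rose, TFEB by 0.39 (SE 0.10, adjusted p = 0.00803) and TFE3 by 0.32 (SE 0.07, adjusted p = 0.00474). Their counts were low, at 3.94 and 3.83 CPM for TFEB in DOX libraries against 2.67 and 2.60 CPM in untreated libraries. These factors are regulated mainly by where in the cell they sit, which RNA counts do not show.

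The autophagy proteins gave 2 rises and no fall among 3. GABARAPL1, of the ATG8 family that is tethered to the growing autophagosome, had 13.6 and 14.2 CPM in DOX libraries and 7.97 and 7.73 CPM in untreated libraries, a rise of 0.66 (SE 0.07, adjusted p = 0.000108). MAP1LC3B, the ATG8 protein used most to follow autophagy, had 129 and 136 CPM after DOX and 86.4 and 81.7 CPM without it, a rise of 0.49 (SE 0.07, adjusted p = 0.000604). SQSTM1, the cargo receptor p62 that is itself degraded by autophagy, had 201 and 214 CPM in DOX libraries and 189 and 219 CPM in untreated libraries. The SQSTM1 values overlapped, and the log2 fold change was -0.14 (SE 0.07, adjusted p = 0.133).

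The deep cells of a library varied in their UMIs of genes made in dividing cells, so the members were then read in classes of cells. Arrest itself was not measured. MKI67 and TOP2A are made in dividing cells, and cells with at most 3 UMIs of both genes together formed the low class, cells with at least 15 the high class. The low class held 413 and 297 cells in the DOX libraries (31.6% and 27.5% of deep cells), against 113 and 48 cells in the untreated libraries (3.16% and 2.25%). The high class held 628 and 564 DOX cells and 2685 and 1805 untreated cells. A class is a range of a score and not a cell type. The low classes were not matched on that score, with a median of 0 UMIs of the pair in both DOX libraries and 2 in both untreated libraries. MKI67 had 4.5 and 3.7 CPM in low DOX cells and 17.1 and 12.6 CPM in low untreated cells. Cells with 2 to 5 UMIs of the pair numbered 104 and 84 in DOX libraries and 136 and 47 in untreated libraries, and 266, 219, 774 and 284 cells in DOX replicates 1 and 2 and untreated replicates 1 and 2 fell between the classes. Low cells had median depths of 76430 and 93553 UMIs in the DOX libraries and 47160 and 55985 in the untreated libraries, where high cells had 81858 and 87004. A class set on raw UMIs therefore collects shallower cells in the untreated libraries, and a class set after thinning each cell to 20000 UMIs was run as an alternative. LMNB1, the lamin that is low in senescent cells, had 7.40 and 7.53 CPM in low DOX cells, 25.6 and 22.9 CPM in low untreated cells, and 87.3 to 101 CPM in high cells of the 4 libraries.

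**Figure D2:**
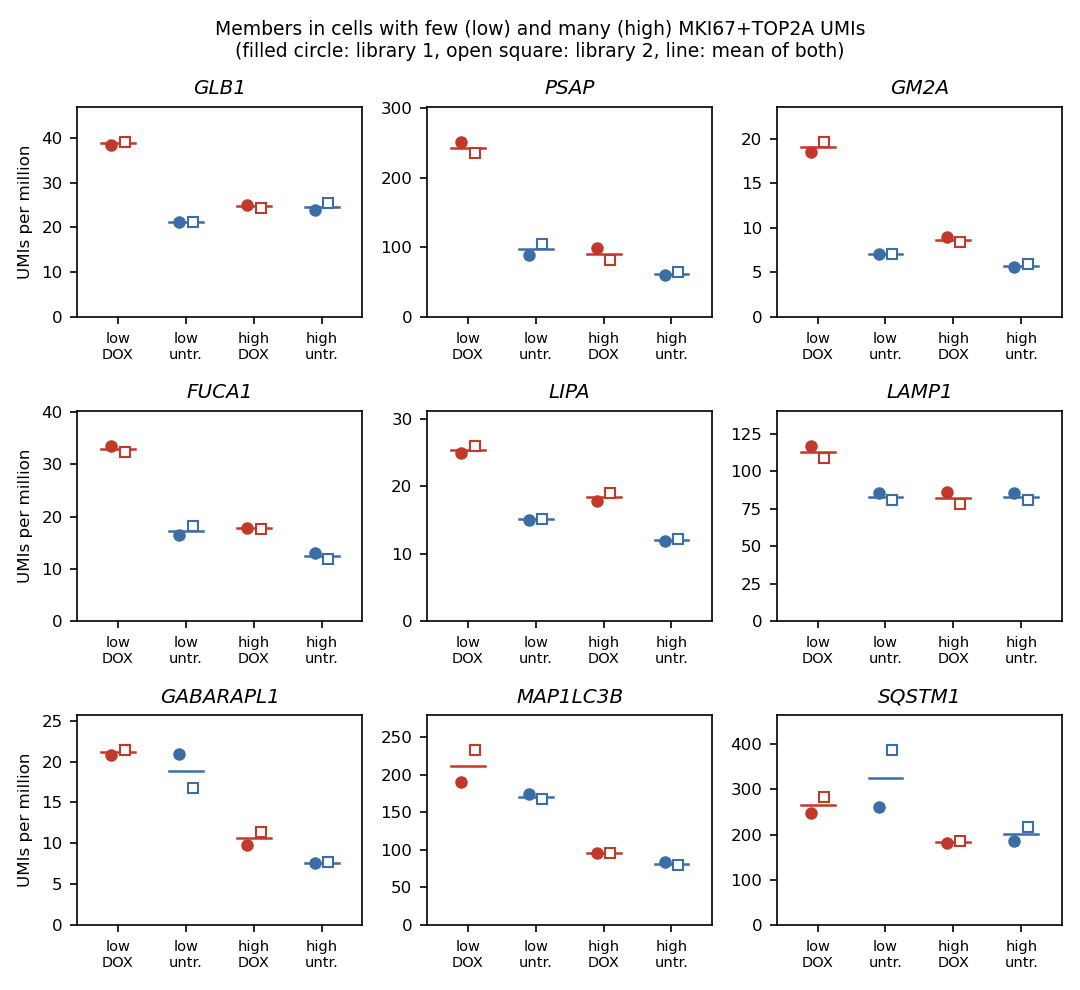
CPM of 9 members in the low and high MKI67+TOP2A classes of each library, with low cells left of high cells and DOX left of untreated. Circles and squares are the 2 libraries and lines their means. GLB1 stands at 38.5 and 39.1 CPM in low DOX cells and between 21.2 and 25.4 CPM in the other classes.

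Within the DOX libraries, 17 of the 32 members were higher in the low class than in the high class, 5 were lower and 10 were not called. Of 19572 genes tested, 23.2% were higher and 26.3% lower. The members' median log2 fold change was 0.27, against 0.04 over all genes tested, and the members summed to 2146 and 2195 CPM in low DOX cells and 1590 and 1552 CPM in high DOX cells. PSAP had 252 and 235 CPM in low DOX cells, against 99.5 and 81.7 CPM in high DOX cells (log2 fold change 1.33, SE 0.07, adjusted p = 2.54e-08). MAP1LC3B had 190 and 233 CPM in low cells and 95.2 and 96.1 CPM in high cells (log2 fold change 1.03, SE 0.07, adjusted p = 4.07e-07). GM2A had 18.6 and 19.6 CPM in low cells and 8.98 and 8.40 CPM in high cells (log2 fold change 1.03, SE 0.10, adjusted p = 9.02e-06). In all 3 genes the classes were well apart in both libraries, which their choice by smallest adjusted p makes likely. GLB1 was also higher in low DOX cells, by 0.55 (SE 0.08, adjusted p = 0.000108), at 38.5 and 39.1 CPM against 25.1 and 24.3 CPM in high DOX cells.

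By role, 5 of 8 hydrolases were higher in the low DOX class (GLB1, FUCA1, ASAH1, LIPA and NEU1), both activators, 4 of 7 proteases (CTSD, TPP1, CTSB and CTSA), 1 of 7 membrane and cholesterol proteins (LAMP1), 1 of 3 pump subunits (ATP6V1A), 1 of 2 transcription factors (TFE3) and all 3 autophagy proteins. FUCA1 was 0.79 higher (33.5 and 32.3 CPM against 17.9 and 17.6 CPM), GABARAPL1 0.90 higher (20.8 and 21.4 CPM against 9.74 and 11.4 CPM) and SQSTM1 0.43 higher (248 and 284 CPM against 181 and 186 CPM). TFE3 was 0.80 higher (adjusted p = 0.000136), and TFEB was not called, with a log2 fold change of 0.24 and an adjusted p of 0.284. The lower members were GUSB at -0.80, MCOLN1 at -0.69, CTSH at -0.53, CTSC at -0.42 and CTSZ at -0.32. GUSB, MCOLN1, CTSC and CTSZ are also among the genes that fell in DOX deep cells as a whole, which hold the same low cells, so both readings share data. In the low DOX cells the epithelial markers summed to 9222 and 8982 CPM, against 4527 and 4223 CPM in high DOX cells, while EPCAM alone had 246 and 269 CPM in low and 315 and 327 CPM in high DOX cells, and the part of this in the members' values was not tested.

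In the untreated libraries the same classes gave fewer calls: 6 members were higher in low cells, 3 were lower and 23 were not called. Of all genes tested, 7.19% were higher and 21.7% lower. The members' median log2 fold change was 0.01, against -0.12 over all genes tested. The members summed to 1851 and 1921 CPM in low untreated cells and 1566 and 1543 CPM in high untreated cells. Their sum was thus higher in low cells here too, but not evenly by role. The autophagy proteins had 457 and 571 CPM in low cells and 277 and 303 CPM in high cells. The sugar and lipid hydrolases differed less, at 188 and 186 against 180 and 174 CPM. The proteases overlapped, at 238 and 247 against 246 and 238 CPM. Library size alone and DESeq2 size factors moved the median of all genes by 0.11 and 0.10 on the log2 scale, and under each 10 members were higher and 2 lower. Of 19572 genes, 1920 and 1896 were higher under these 2 scales and 2866 and 2992 lower. The untreated low class has only 113 and 48 cells, and a p that misses the threshold does not show that values were equal. The 3 autophagy proteins were all higher in low untreated cells. MAP1LC3B had 174 and 167 CPM in low cells against 83.3 and 79.5 CPM in high cells (log2 fold change 0.96, SE 0.08, adjusted p = 6.43e-06). GABARAPL1 had 20.9 and 16.8 CPM in low cells and 7.55 and 7.67 CPM in high cells (log2 fold change 1.23, SE 0.14, adjusted p = 7.75e-05). SQSTM1 had 262 and 387 CPM in low cells and 186 and 216 CPM in high cells (log2 fold change 0.55, SE 0.08, adjusted p = 0.000399), and the 2 low values lay far apart. PSAP was 0.53 higher (adjusted p = 0.000471), CD68 0.88 higher and TFE3 0.57 higher, while MCOLN1 at -0.81, GUSB at -0.59 and CTSZ at -0.34 were lower.

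GLB1 went the other way in untreated cells. It had 21.2 and 21.3 CPM in low untreated cells and 23.9 and 25.4 CPM in high untreated cells, a change of -0.32 on the log2 scale (SE 0.11) that missed the threshold at an adjusted p of 0.0508. The difference between the DOX and the untreated low against high change was tested directly. For GLB1 it was 0.86 on the log2 scale (SE 0.13, adjusted p = 0.00254), and its adjusted p was 0.0566 when each cell was thinned to 20000 UMIs. In all, 5 members had a larger low against high change in DOX libraries and 0 a smaller one, where 3.36% and 4.38% of all genes did. With 0 members lower by edgeR at the adjusted threshold, 1 was lower at an unadjusted p under 0.05, DESeq2 also called 0 lower, and classes set after thinning gave 4. Those classes also called 3574 of 19416 genes lower, against 858 of 19572 in the main fit. PSAP differed by 0.80 (SE 0.10, adjusted p = 0.000823), with 89.3 and 106 CPM in low untreated cells and 59.9 and 64.4 CPM in high untreated cells. LAMP1 differed by 0.46 (SE 0.09, adjusted p = 0.0107), with 117 and 109 CPM in low DOX cells against 86.3 and 78.2 CPM in high DOX cells, and with 85.2 and 81.1 CPM in low untreated cells against 85.2 and 80.7 CPM in high untreated cells. GM2A differed by 0.84 (adjusted p = 0.0285) and TPP1 by 0.79 (adjusted p = 0.0256). Without DOX replicate 2, or without untreated replicate 1, GM2A, TPP1 and LAMP1 were no longer called and GLB1 and PSAP were, so that 2 members remained called. Without untreated replicate 2 the count of larger changes was 9. The autophagy proteins showed no called difference, at 0.08 for MAP1LC3B, -0.33 for GABARAPL1 and -0.13 for SQSTM1, with standard errors of 0.11, 0.17 and 0.11. For SQSTM1 this depends on the setting, since the change was called smaller in DOX libraries with no low-count filter (-0.30, adjusted p = 0.0179), with cuts of 1 and 30 (-0.41, adjusted p = 0.0453) and without untreated replicate 1 (-0.42, adjusted p = 0.00799).

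**Figure D3:**
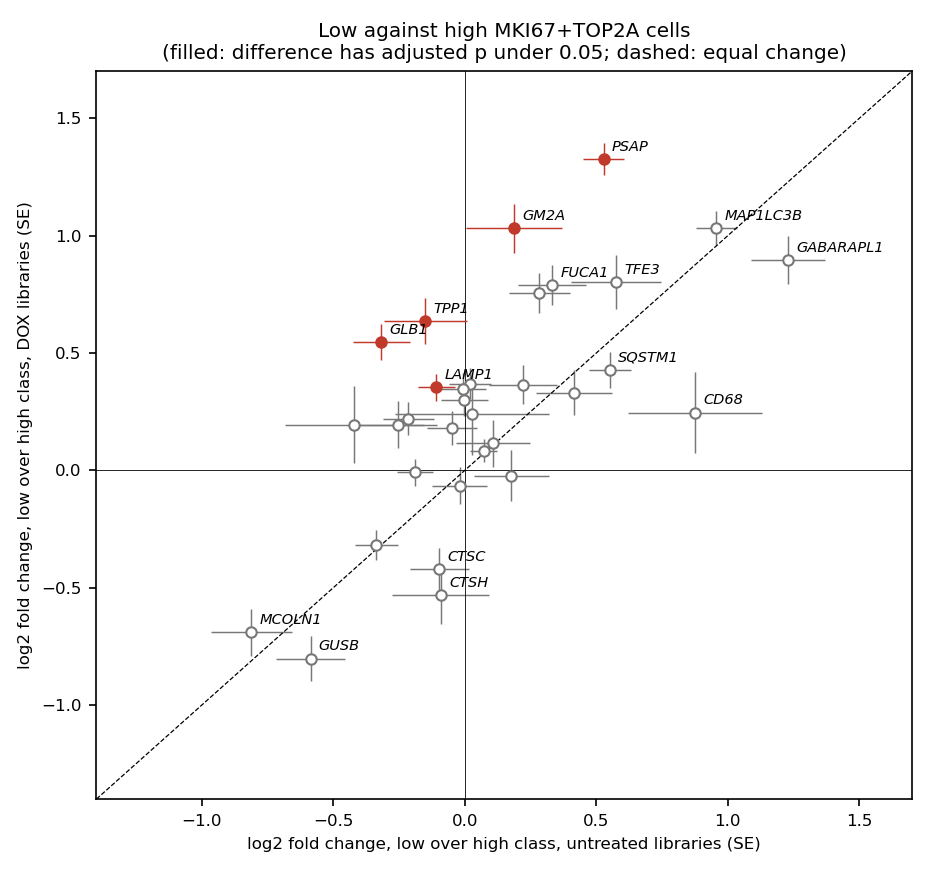
Log2 fold change of the 32 members between the low and high MKI67+TOP2A classes, in DOX libraries (vertical axis) and in untreated libraries (horizontal axis), with standard errors. Filled points are the 5 members whose difference passed an adjusted p of 0.05, GLB1, PSAP, GM2A, TPP1 and LAMP1, and all 5 lie above the dashed line of equal change. MAP1LC3B and GABARAPL1 lie near that line at the upper right.

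The comparison of DOX with untreated cells was then made inside each class. Low DOX cells held fewer MKI67 and TOP2A UMIs than low untreated cells, and the part of this in the values was not tested. Among low cells, 12 members were higher after DOX, 2 were lower and 18 were not called, where 12.1% and 13.9% of 16522 genes tested were higher and lower. With a mitochondrial limit of 5%, or with class cuts of 1 and 30 UMIs, 6 members were higher. Of all genes tested, 1347 of 14489 and 783 of 15645 were higher at these 2 settings. PSAP rose by 1.22 in low cells (SE 0.10, adjusted p = 0.000345), at 252 and 235 CPM in DOX libraries against 89.3 and 106 CPM in untreated libraries. GM2A rose by 1.32 (SE 0.16, adjusted p = 0.00114), at 18.6 and 19.6 CPM against 7.02 and 7.11 CPM in untreated libraries. FUCA1 rose by 0.82 (SE 0.12, adjusted p = 0.00265), at 33.5 and 32.3 CPM against 16.5 and 18.1 CPM in untreated libraries. GLB1 rose by 0.75 (SE 0.12, adjusted p = 0.00292), at 38.5 and 39.1 CPM against 21.2 and 21.3 CPM in untreated libraries. In these 4 genes each DOX value was above both untreated values. This adds little, since all but GLB1 were named for their small adjusted p.

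The remaining members that were higher in low DOX cells than in low untreated cells were TPP1 (0.84), LIPA (0.63), LAMP2 (0.55), CTSB (0.54), CTSD (0.54), CTSA (0.41), ATP6V1A (0.37) and LAMP1 (0.32). CTSC fell by 0.58 and CD63 fell by 0.31, the CD63 call standing at an adjusted p of 0.05. LAMP2 was called at an adjusted p of 0.0493 and lost the call without DOX replicate 2, at 0.38 (adjusted p = 0.224). A lone cell bears on this value: it held 194 LAMP2 UMIs among 24976 UMIs, where the next cell of that library had 25. It carried 20.1% of the LAMP2 UMIs of the low cells of DOX replicate 2, where the level was 26.6 CPM without it and 33.3 CPM with it. With the top cell of each library and class left out, the log2 fold change of LAMP2 in low cells was 0.49 (adjusted p = 0.0326). None of the 3 autophagy proteins was called between low DOX and low untreated cells. GABARAPL1 had 20.8 and 21.4 CPM in low DOX cells and 20.9 and 16.8 CPM in low untreated cells (log2 fold change 0.01, SE 0.14), and the change in MAP1LC3B was 0.19 on the log2 scale (SE 0.11, adjusted p = 0.265). CDKN1A had 552 and 521 CPM in low DOX cells and 153 and 272 CPM in low untreated cells.

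Among high cells, 10 members were higher after DOX, 5 were lower and 17 were not called, where 16.4% and 15.9% of 20167 genes tested were higher and lower. With library size alone the members split into 13 higher and 1 lower, where 4554 of 20167 genes were higher and 1778 lower. LIPA rose by 0.52 (SE 0.07, adjusted p = 0.000479), at 17.8 and 19.0 CPM in DOX libraries and 11.9 and 12.1 CPM in untreated libraries. GM2A rose by 0.50 (SE 0.08, adjusted p = 0.00167), at 8.98 and 8.40 CPM in DOX libraries and 5.63 and 5.90 CPM in untreated libraries. PSAP rose by 0.46 (SE 0.09, adjusted p = 0.00407), at 99.5 and 81.7 CPM in DOX libraries and 59.9 and 64.4 CPM in untreated libraries. FUCA1 (0.41), GABARAPL1 (0.39), CTSH (0.37), CD68 (0.47), TFEB (0.35), NEU1 (0.34) and CTSB (0.27) were also higher. CD63 at -0.29, GUSB at -0.24, MCOLN1 at -0.23, SQSTM1 at -0.22 and CTSC at -0.21 were lower. Without DOX replicate 1 or DOX replicate 2 the count of higher members was 6 and that of lower members 0, and without untreated replicate 2 it was 10 lower, so the small falls in this class rest on which libraries are used. GLB1 was not called in high cells, at 25.1 and 24.3 CPM in DOX libraries and 23.9 and 25.4 CPM in untreated libraries (log2 fold change -0.09, SE 0.06, adjusted p = 0.308). The summed members differed little in high cells, at 1590 and 1552 CPM after DOX and 1566 and 1543 CPM in untreated libraries.

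The spread of the members among cells of a library was then described, without a test. After thinning each deep cell to 20000 UMIs, the variance over the mean, which is near 1 where cells differ by counting alone, was 3.47 and 3.00 for PSAP in DOX libraries and 1.15 and 1.13 in untreated libraries. MAP1LC3B had 4.62 and 8.55 in DOX libraries against 1.74 and 1.78 in untreated libraries, and SQSTM1 had 3.36 and 5.87 against 1.65 and 1.76. For these 3 genes the ratio was above 1 in all libraries and higher in both DOX libraries than in both untreated libraries. The higher ratio in both DOX libraries was not particular to them. It was seen in every member except GUSB, TPP1, CD68, TFEB and TFE3, and GLB1 had 1.29 and 2.30 against 1.08 and 1.03. Some of these gaps were small, as for CTSC, at 1.171 and 1.212 in DOX libraries against 1.167 and 1.114 in untreated libraries. The ratio was not computed over all genes, so the members cannot be set against a background. The part of the larger low class of the DOX libraries in these ratios was not tested. A few cells weigh on the ratio, since the top cell of DOX replicate 2 held 559 MAP1LC3B UMIs and the next 144, and with the lone LAMP2 cell the LAMP2 ratio was 35.8 in that library against 1.12 in the other. At equal depth, 83.4% and 79.4% of DOX cells had a PSAP UMI, against 67.7% and 70.1% of untreated cells. GLB1 was seen in 41.5% and 37.6% of DOX cells and 37.2% and 38.0% of untreated cells, shares that overlap. No cell type that lacks these genes was present from which to read the share given by free RNA. GM2A was seen in 18.4% and 18.4% of DOX cells and 11.2% and 10.5% of untreated cells.

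Levels were also read over ranges of UMIs per barcode, as values without a test. From 40000 to 80000 UMIs, PSAP had 116 and 94.8 CPM in DOX libraries against 57.8 and 63.3 CPM in untreated libraries, and over 150000 UMIs 154 and 169 CPM against 64.2 and 65.9 CPM. MAP1LC3B went along, at 111 and 110 CPM in DOX barcodes of 40000 to 80000 UMIs and 175 and 166 CPM in those over 150000, while untreated barcodes had 85.8 and 84.9 CPM and 87.5 and 84.0 CPM. GLB1 varied less, between 26.5 and 31.6 CPM over the 3 ranges above 40000 UMIs in DOX libraries and between 23.5 and 26.3 CPM in untreated libraries. Barcodes of 500 to 5000 UMIs with the same mitochondrial limit are a large share of the DOX tables, 5164 and 4729 of them, against 239 and 129 in the untreated libraries. In these shallow DOX barcodes CD63 had 737 and 714 CPM and MAP1LC3B 255 and 229 CPM, while NPC1 had only 8.21 and 6.94 CPM and GLB1 20.4 and 19.6 CPM. The members as a group summed to 2371 and 2271 CPM in shallow DOX barcodes. Whether these barcodes are small cells, damaged cells or droplets with free RNA was not tested, and they enter no comparison above. The study describes a cluster, enriched after DOX, with far fewer genes per cell than its proliferating cluster. It proposes that this cluster includes senescent and possibly other aberrant cells. Deep DOX cells had medians of 8755 and 9178 genes, and the low class among them 8599 and 9012. These medians lie in the range the study gives for most cells of its proliferating cluster. By these gene counts the comparisons above, the low class included, leave out most of the cluster enriched after DOX. Which barcodes belong to it was not tested.

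**Figure D4:**
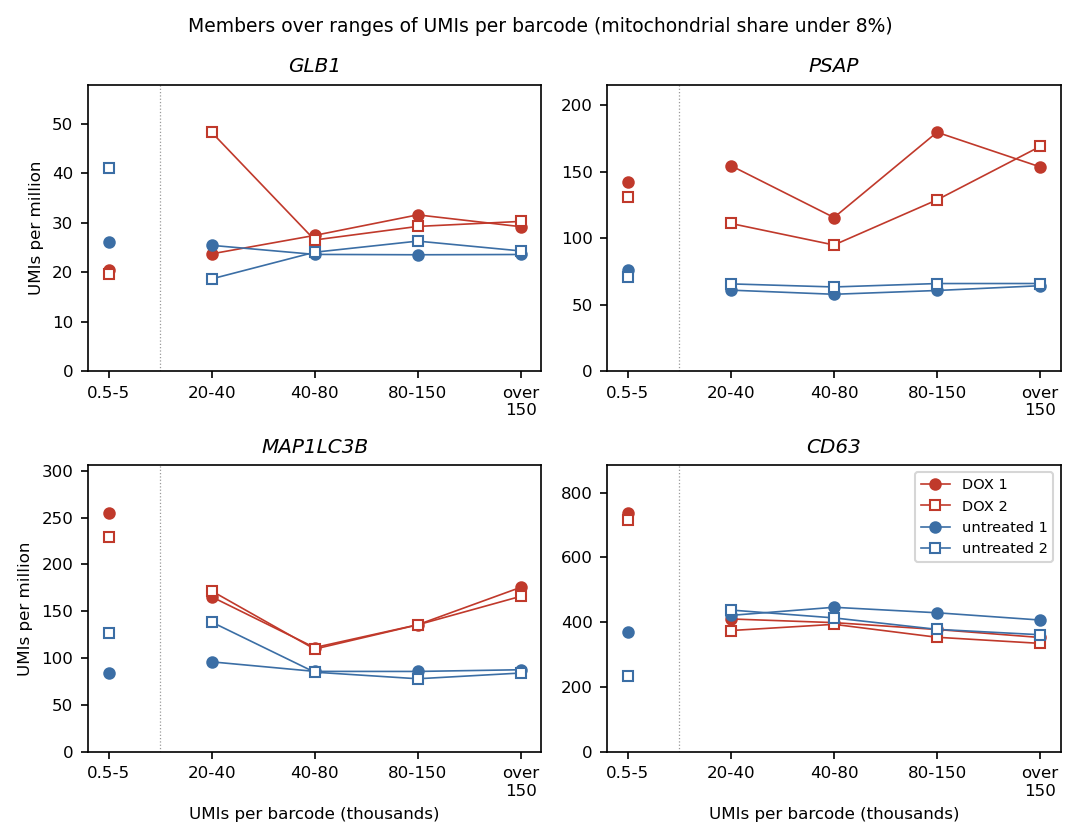
CPM of GLB1, PSAP, MAP1LC3B and CD63 over ranges of UMIs per barcode in each library (along the horizontal axis, mitochondrial share under 8%). The dotted line sets the shallow barcodes apart from deep cells. CD63 stands at 737 and 714 CPM in shallow DOX barcodes and between 334 and 410 CPM in the deep ranges of the DOX libraries.

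Genes that share the pathways but are not members were read from lists set by function. Of 30 other lysosomal hydrolases tested, 11 rose in DOX deep cells, 9 fell and 10 were not called, where 28.2% of all genes tested rose and 26.4% fell. IDUA, the alpha-iduronidase, rose by 1.60 (4.74 and 4.91 CPM in DOX libraries against 1.33 and 1.50 CPM in untreated libraries), LGMN, an asparaginyl protease, rose by 1.15 (53.3 and 47.0 CPM against 20.9 and 19.1 CPM), and PPT1, the palmitoyl thioesterase, fell by 0.70 (23.6 and 24.1 CPM against 33.8 and 35.4 CPM). Of 20 other lysosomal membrane genes 8 rose, 4 fell and 8 were not called, led by LAMP3 (2.48), ABCA2 (0.55) and LITAF (0.43). Of 19 other V-ATPase subunits 3 rose, 4 fell and 12 were not called, with ATP6V1C2 at 0.91, ATP6V1B2 at -0.41 and ATP6V0B at -0.42.

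Of 41 other autophagy genes, 12 rose, 11 fell and 18 were not called, close to the shares of 28.2% and 26.4% over all genes. OPTN, a cargo receptor like SQSTM1, rose by 1.86 (37.6 and 36.0 CPM in DOX libraries against 9.13 and 8.83 CPM in untreated libraries), BNIP3L, a receptor for mitochondria, rose by 1.32 (60.5 and 65.1 CPM against 22.6 and 22.2 CPM) and WIPI1, which binds the forming autophagosome, rose by 0.63. Of 21 genes of mTORC1 and nutrient sensing at the lysosome, 3 rose, 8 fell and 10 were not called. DEPTOR, an inhibitor of mTOR, rose by 1.62, TFEC, a relative of TFEB, by 1.84 from very low counts (0.424 and 0.371 CPM in DOX libraries, 0.0961 and 0.100 CPM in untreated libraries), and LAMTOR1, which anchors mTORC1 to the membrane, fell by 0.56. Of 9 autophagy genes linked to p53, 7 rose, 1 fell and 1 was not called, with a median log2 fold change of 1.10. TP53INP1 rose by 3.33 (23.2 and 18.2 CPM in DOX libraries against 1.95 and 1.69 CPM in untreated libraries), SESN2 by 1.21 and DDIT4 by 1.30. In high cells 7 of these 9 genes were higher after DOX, where 16.4% of all genes were, and in low cells 3 were higher and 6 were not called, where 12.1% of all genes were higher.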

How the data were processed

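Droplet-based 3′ scRNA-Seq gave 4 libraries, 2 of DOX-treated and 2 of untreated HCT-116 cells. The values are raw UMI counts, which the authors made by aligning reads to hg19 with Cell Ranger and deposited without normalization. The matrix header gives Cell Ranger 7.2.0, and the submitters' processing notes list 7.0.0. In each DOX library 8000 barcodes were kept by instruction. The 6 bulk RNA libraries were not analysed here. Sequences are from RefSeq tables (GRCh38.p14) and gene positions from GENCODE lifted to GRCh37. The members and gene lists were chosen with earlier results of these data known.

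Counts were summed per library over barcodes with at least 20000 UMIs and a mitochondrial share under 8%, and per class. They were tested with edgeR 4.0.16 (filterByExpr, TMM factors, quasi-likelihood F test) on all genes, with Benjamini-Hochberg adjustment over all genes tested and a threshold of 0.05. Low against high cells were tested with the library as a block. No doublets were called or removed. Droplets with more than 1 cell would hold many UMIs, and an alternative added limits of 12000 genes and 150000 UMIs. Free RNA was not taken off. Alternatives were DESeq2 1.42.0 (its size factors and its Wald test), library size alone, no low-count filter, 10000 UMIs or 5% as limits, thinning to 20000 UMIs, other class rules, the replicate number as a block, and leaving out each library. After the data were seen, a fit without the top cell of each member was added. Scripts were tested on simulated counts. Per-library values are given for GLB1, for members called in deep cells with a log2 fold change beyond 0.5 either way, and for the 3 members with the smallest adjusted p in each other comparison, and of other lists the 3 genes with the smallest adjusted p are named. Values of further members, the lone LAMP2 cell among them, were singled out after they were seen. Fits ran in R 4.3.3. Figures were drawn with matplotlib 3.10.9 in Python 3.11.15, and tables handled with pandas 2.3.3, numpy 2.4.6 and scipy 1.17.1.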

Additional observations from a re-analysis of the deposited data

Results flagged for a closer look

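The change between low and high MKI67+TOP2A cells differed between DOX and untreated libraries for 5 members by a test of the difference itself (edgeR's quasi-likelihood test, adjusted over 19572 genes, 2 libraries in each group). The difference, DOX minus untreated on the log2 scale, was 0.86 for GLB1 (adjusted p = 0.00254), 0.80 for PSAP (adjusted p = 0.000823), 0.84 for GM2A (adjusted p = 0.0285), 0.79 for TPP1 (adjusted p = 0.0256) and 0.46 for LAMP1 (adjusted p = 0.0107). In each of these genes both DOX libraries showed the higher level in low cells. Over the alternatives, the difference ranged for GLB1 between 0.62 and 0.94 with adjusted p between 0.000215 and 0.0566, and for PSAP between 0.52 and 0.93 with adjusted p between 2.33e-07 and 0.0284. It ranged for GM2A between 0.50 and 1.51 (adjusted p up to 0.374), for TPP1 between 0.41 and 1.05 (up to 0.505) and for LAMP1 between 0.16 and 0.58 (up to 0.303). The low untreated class holds 113 and 48 cells and is shallower than the high class, and the part of this in the differences was tested only by thinning and by classes set after thinning.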

How the results depend on the processing

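Under library size alone the falls in deep cells numbered 3, in low cells 1 and in high cells 1, and 10 members were higher in low than in high untreated cells, as with DESeq2 size factors (10). Over all genes, 3259 of 21563 fell in deep cells under library size alone, 1655 of 16522 in low cells and 1778 of 20167 in high cells. Calls over all genes also changed in number with the other settings. DESeq2's Wald test called 3 members with a larger low against high change in DOX libraries, a limit of 10000 UMIs 2, a mitochondrial limit of 5% 3, thinning 2, and cuts of 1 and 30 UMIs 2 larger and 1 smaller. No low-count filter gave 2 smaller changes, where 2287 of 29064 genes had one, and 4 falls in low cells, where 2331 of 27131 genes fell. Classes set after thinning gave 4 smaller changes, 5 falls in low cells and 0 members lower in low untreated cells. Over all genes they gave 3574 of 19416 smaller changes, 3879 of 17053 falls in low cells and 1788 of 19416 lower in low untreated cells. They turned the difference to -0.31 for CTSZ (adjusted p = 0.0121) and -0.16 for CD63 (adjusted p = 0.0449). The cause was not tested. Members lower in low untreated cells numbered 1 with the 5% limit and 1 with thinning. In low cells, 6 members rose with the 5% limit and 6 with cuts of 1 and 30. In high cells the falls numbered 3 with the 5% limit, 3 with the study's upper limits, 2 with thinning and 3 with cuts of 1 and 30. Without the top cell of each member, 8 members were lower in low untreated cells, 10 had a larger change in DOX libraries and 1 fell in low cells; by its construction this takes most from classes of few cells.

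Leaving out each library in turn gave 3 to 9 falls in deep cells. Low against high, it gave 3 to 5 lower members in DOX libraries, 1 to 5 lower in untreated libraries, and 2 to 9 larger and 0 to 2 smaller changes. DOX against untreated, it gave 1 to 3 falls in low cells, and 6 to 13 rises and 0 to 10 falls in high cells. Where a group then has 1 library, it is assumed to vary like the other group. Calls over all genes also changed in number with each library left out. Whether replicate numbers pair the libraries is not stated. Same-numbered deviations correlated at 0.0066 over 21563 genes, which with 2 libraries in each group cannot settle it. With the replicate block, 14 members rose and 8 fell in deep cells, 12 and 3 in low cells, and 10 and 7 in high cells. The small untreated low class, 113 and 48 cells, sets the precision of every value that rests on it.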
